A study of Mus musculus with 42 samples.

Results

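The Hox cluster genes are the members described here. They were taken by name, as every row named Hox followed by a cluster letter from a to d and a number, and 39 of the 48321 gene names in each of the deposited count tables met that rule. HoxA contributed 11 genes, HoxB 10, HoxC 9 and HoxD 9. No measured value entered the choice.

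The study followed mouse embryonic fibroblasts (MEFs) as they were reprogrammed to induced pluripotent stem cells (iPSCs), using fluorescent reporters of Tet1 (mCherry) and Pou5f1 (GFP) to sort the cells, and it deposited polyA RNA-seq counts for 42 libraries in 14 groups of 3. The first table covers a cross called naivex2, in which the transgene Tg(Tet1-mCherry)B37Koh on a B6; 129S4 background was combined with the transgene Tg(Pou5f1-EGFP)2Mnn/J on B6;CBA, with genotype Tg(mCherry)/wt; Tg(GFP)/wt. Its 7 groups were parental MEFs at day 0, mCherry+ GFP- cells at days 10, 12 and 14, mCherry+ GFP+ cells at days 12 and 14, and established iPSCs. The second table covers a cross called totalx2, in which the allele Tet1tm1.1Koh on B6 was combined with the allele Pou5f1tm2Jae/J on B6;129S4, with the genotype again labelled Tg(mCherry)/wt; Tg(GFP)/wt. Its 5 groups were mCherry+ GFP- cells at days 8, 10 and 12 and mCherry+ GFP+ cells at days 10 and 12. The second table also holds iPSC clones from a cross of Tet1tm1Koh on B6 with the transgene Tg(Pou5f1-EGFP)2Mnn/J on B6;CBA, which were either Tet1 knockout (mut/mut;GFP/wt) or wild type (wt/wt;GFP/wt). All donors were male.

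In both crosses the 3 replicates were 3 independent MEF lines, each followed through every group, and for the knockout and wild-type iPSCs they were clones. Whether those clones came from separate animals is not given in the sources used here, so their p-values measure the spread between clones. The iPSCs were grown on feeder fibroblasts to passage 6 to 7 and then depleted of feeders. One sorted GFP- library, day 12 replicate 2 of totalx2, lacks the mCherry mark in its title, and its group was taken from its other labels. How the reprogramming factors were delivered is not given in the sources used here, and no MEF library of the totalx2 cross was analysed here. Each contrast was therefore made within 1 table, and day 8 is the earliest totalx2 group.

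Hox genes encode homeodomain transcription factors that lie in 4 clusters and specify position along the body axis and the limb. Low-numbered genes act towards the head and high-numbered genes towards the tail and the ends of the limbs, and cultured fibroblasts keep the Hox combination of the body site they came from. In pluripotent cells the clusters are known to be held silent but inducible by Polycomb complexes, and many of their promoters are rich in CG dinucleotides. TET1 is an enzyme that oxidises methylated cytosine and is known to bind CG-rich promoters.

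Promoter sequences are shown for 3 of the genes on which the results turn, because they differ widely in CG content. They are taken from RefSeq (GRCm38.p6) and run 5′ to 3′ from 250 bases before to 50 bases after a transcript start, with each CG dinucleotide in capitals. The first is Hoxd13 at chr2:74667975-74668274 on the plus strand, the second a Hoxa10 start at chr6:52234890-52235189 on the minus strand, and the third Hoxa9 at chr6:52227321-52227620 on the minus strand.
Hoxd13: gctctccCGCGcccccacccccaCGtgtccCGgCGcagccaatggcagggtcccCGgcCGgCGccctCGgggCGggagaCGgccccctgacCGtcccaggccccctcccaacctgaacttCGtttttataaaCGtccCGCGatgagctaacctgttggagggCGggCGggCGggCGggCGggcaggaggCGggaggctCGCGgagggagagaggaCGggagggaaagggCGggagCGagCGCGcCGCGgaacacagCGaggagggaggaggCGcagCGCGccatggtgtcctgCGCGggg
Hoxa10: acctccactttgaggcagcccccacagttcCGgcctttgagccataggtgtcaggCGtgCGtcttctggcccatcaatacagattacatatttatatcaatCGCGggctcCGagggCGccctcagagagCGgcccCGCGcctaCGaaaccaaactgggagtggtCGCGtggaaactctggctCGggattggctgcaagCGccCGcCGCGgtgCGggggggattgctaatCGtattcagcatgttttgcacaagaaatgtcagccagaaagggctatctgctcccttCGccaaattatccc
Hoxa9: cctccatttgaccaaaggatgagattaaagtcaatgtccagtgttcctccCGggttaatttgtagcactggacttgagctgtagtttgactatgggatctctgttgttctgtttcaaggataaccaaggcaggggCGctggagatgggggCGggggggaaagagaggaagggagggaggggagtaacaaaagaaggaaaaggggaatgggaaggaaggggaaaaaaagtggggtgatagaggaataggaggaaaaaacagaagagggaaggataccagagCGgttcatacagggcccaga
The Hoxd13 window holds 37 CG dinucleotides, the Hoxa10 window 21 and the Hoxa9 window 4. The window of another Hoxa10 start, not shown (chr6:52240805-52241104, minus strand), holds 12 and no TATAAA. No promoter was available here for Hoxc13 or Hoxb9. RefSeq gave 24 such promoters for 22 of the members, with a median of 14.5 CG dinucleotides against 7.0 over 32851 promoters of the same length. At least 10 CG dinucleotides were present in 70.8% of the Hox promoters and 43.5% of all promoters. The letters TATAAA, searched on both strands, occurred in the Hoxd13 and Hoxa10 windows shown and in 4 Hox promoters in all (16.7%), against 13.6% of all promoters. These are descriptions of sequence, and the libraries measured RNA only.

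Of the 39 genes, 31 had counts and 8 were at 0 in all 42 libraries. Those 8 were the genes whose annotated span lies wholly under other genes on the same strand. The authors counted reads over whole gene bodies with strand taken into account, and reads that fall in more than 1 same-strand gene were not counted, so a 0 here says nothing about expression. Hoxa3, Hoxa4, Hoxa5 and Hoxa6 lie within Gm28308 (chr6:52163359-52213339, minus strand), and the last 3 also lie within the long annotated span of Hoxa3 (chr6:52169062-52213336). Hoxc6, Hoxc8 and Hoxc9 lie within the annotated span of Hoxc5 (chr15:102967443-103017429, plus strand). Hoxd4 lies within Hoxd3 (chr2:74711927-74748442, plus strand) and overlaps Gm28230 and Mir10b.

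Another 7 genes were counted over part of their span. Hoxd3 kept 1.44% of its bases, Hoxc10 12.7%, Hoxd10 28.6%, Hoxa2 39%, Hoxc5 39.1%, Hoxd11 52.1% and Hoxa9 98.9%. Hoxd10 and Hoxd11 share sequence with Gm28309 (chr2:74683446-74694194, plus strand). The remaining 24 had no same-strand neighbour over any base. Coordinates are those of the deposited tables, on mm10.

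Total counts ran from 6540256 to 20783265 per library, and 3 counts, used as the floor of detection, corresponded to 0.165 to 0.39 CPM (counts scaled to a common library size of 1000000 with TMM factors) depending on the group. Such floors cover counting error only. Mitochondrial genes took 1.753% to 12.18% of counts, with 2 libraries over 8%: naivex2 day 10 GFP- replicate 1 (8.993%) and wild-type iPSC replicate 1 (12.18%). Group labels were checked on marker genes. Nanog averaged 0.451 CPM in MEFs and at least 90.5 CPM in every other group, and Col1a1 averaged 8690 CPM in MEFs and 559 CPM in naivex2 iPSCs. None of 14 fibroblast markers was at 0 in any group.

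Summed over the 31 genes with counts, Hox RNA stood at 329, 339 and 328 CPM in the 3 MEF libraries. It was 39.4, 42.6 and 37.7 CPM in naivex2 GFP- cells at day 10, 25.7, 21.8 and 24.2 CPM in GFP+ cells at day 14, and 15.3, 29.0 and 12.2 CPM in iPSCs. In totalx2 the sum was 254, 254 and 249 CPM at day 8 and still 156, 158 and 169 CPM in GFP- cells at day 12, while day 12 GFP+ cells held 30.7, 28.9 and 30.4 CPM. Wild-type clones held 21.3, 20.7 and 22.7 CPM and knockout clones 14.2, 19.3 and 20.2 CPM. In both crosses the libraries of the first group stood above all of the later ones. Also in both, the GFP- and GFP+ sums did not overlap on either day that had both kinds of cells. These are bulk samples, so fewer expressing cells and less RNA per cell cannot be told apart.

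**Figure D1:**
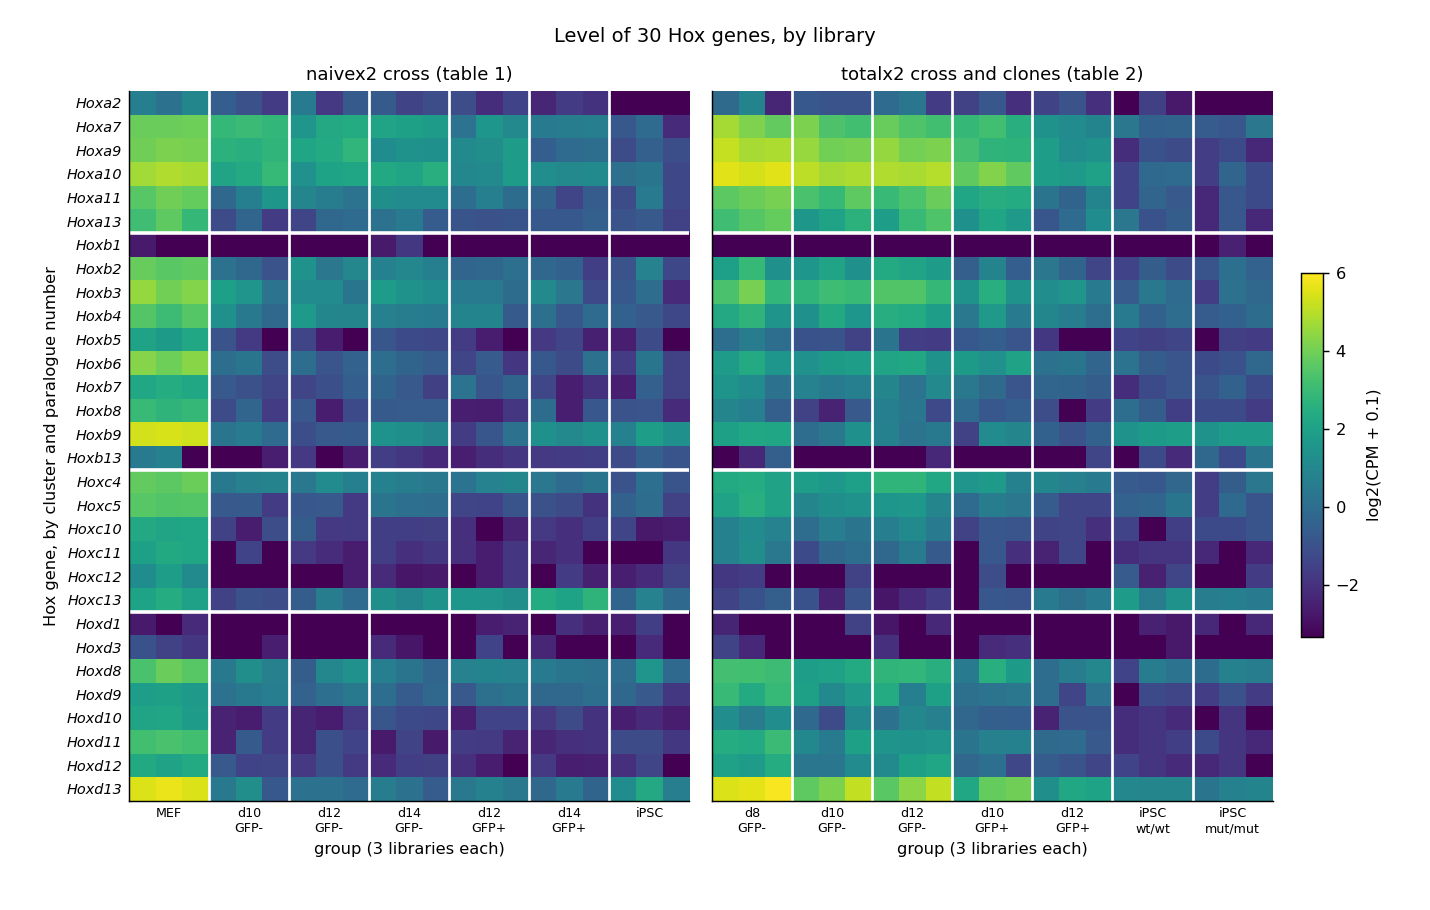
Level of 30 of the 31 Hox genes with counts in every library, as log2 of CPM plus a pseudocount of 0.1, with genes in rows by cluster and paralogue number and libraries in columns by group (3 per group). The MEF and totalx2 day 8 columns are the brightest, and Hoxc13 is the brightest HoxC row in naivex2 GFP+ cells at day 14.

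Fibroblast marker RNA moved in part with the Hox sum. Relative to the MEF mean, the day 10 Hox sum averaged 12.0% and the summed level of the 14 fibroblast markers 5.18%. At day 14 the same figures were 11.2% and 18.3% in GFP- cells, 7.2% and 9.42% in GFP+ cells, and in iPSCs 5.67% and 10.3%. The GFP- Hox sum thus lay between 34.5 and 42.6 CPM at both day 10 and day 14, while the fibroblast sum was 912 to 1520 CPM at day 10 and 3450 to 5620 CPM at day 14. In totalx2, relative to day 8, GFP+ cells at day 10 averaged 30.6% of the Hox sum and 47.1% of the fibroblast sum, and GFP+ cells at day 12 averaged 11.9% and 14.7%. The part of remaining fibroblasts or feeders in the Hox levels was not tested.

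**Figure D2:**
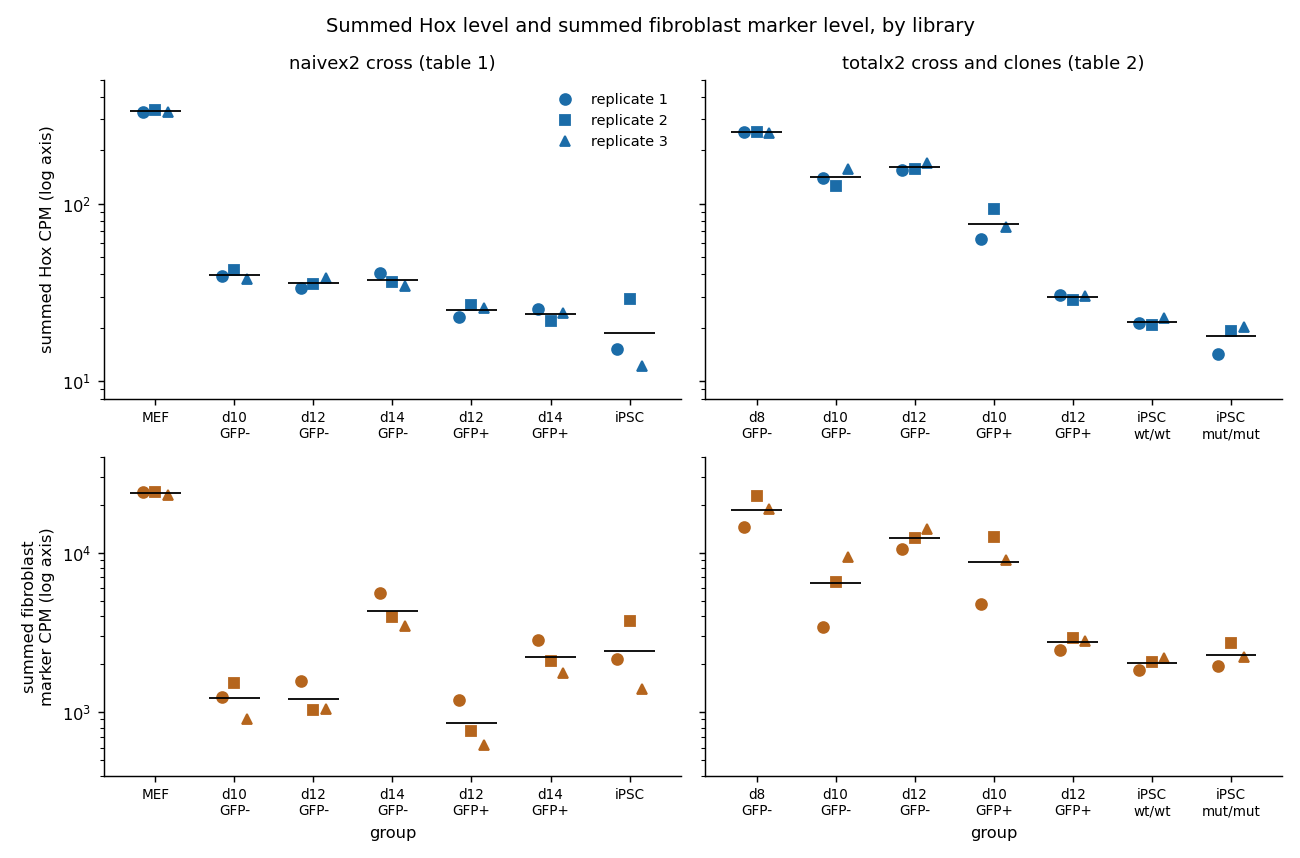
Summed CPM of the 31 Hox genes (upper row) and of 14 fibroblast markers (lower row) in each library on log axes, with naivex2 on the left and totalx2 and the clones on the right; points are libraries and lines the group means. The Hox sums of totalx2 GFP+ cells at day 12 (28.9 to 30.7 CPM) sit far under those of GFP- cells on the same day (156 to 169 CPM), and the fibroblast sums differ the same way.

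The first group of each cross had its own order of Hox levels, though MEFs and day 8 cells are different stages and were counted in separate tables. To compare genes, CPM were divided by the kilobases of countable exon. The counts cover whole gene spans, introns included, and the exons came from another annotation, so the order is approximate. In MEFs the highest were Hoxd13 at 19.3, Hoxb9 at 16.2, Hoxb6 at 9.32, Hoxa10 at 8.41 and Hoxd11 at 8.38 CPM per kilobase. In totalx2 day 8 cells they were Hoxd13 at 20.7, Hoxa10 at 14.0, Hoxa7 at 6.75, Hoxa11 at 6.47 and Hoxd11 at 5.64. In iPSCs the order was led by Hoxd13 at 1.14 and Hoxb9 at 1.0 CPM per kilobase, and in wild-type clones Hoxb9 stood at 1.24, Hoxc13 at 1.01 and Hoxd13 at 0.729.

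The first comparison asked how Hox expression in sorted naivex2 cells at day 10 differed from that of the MEFs they came from. Every Hox gene that could be tested, 27 of the 31 with counts, was lower at day 10, and none was higher. Over all 16132 genes tested, 37.6% were lower and 38.8% higher. The median log2 fold change was −3.75 for the tested Hox genes and 0.06 for all genes. Because a gene could enter the test through a high MEF level alone, the count over tested members describes those that passed and not all 39. Hoxb1, Hoxb13, Hoxd1 and Hoxd3 had too few counts to test.

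Among the posterior genes, Hoxd13, which patterns digits, read 45.8, 53.2 and 45.1 CPM in MEFs and 1.26, 2.31 and 0.498 CPM at day 10. Its log2 fold change was −5.12 ± 0.38 (SE; adjusted p = 1.64e-10, edgeR quasi-likelihood test). Hoxa13, which acts in digits and the genital tubercle, read 8.68, 12.7 and 7.21 CPM in MEFs and 0.336, 0.725 and 0.214 CPM at day 10 (log2 fold change −4.42 ± 0.38, adjusted p = 1.05e-09). Neither pair of groups overlapped, and the day 10 values lay near the floor of 0.221 CPM for Hoxa13. Hoxd11, a forearm patterning gene, fell from 9.2 ± 0.553 to 0.275 ± 0.228 CPM (SD, n = 3), a log2 change of −4.95 ± 0.39 (adjusted p = 1.92e-10).

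Within HoxB, Hoxb9, which acts in the thoracic skeleton, read 41.3, 43.5 and 39.9 CPM in MEFs and 1.09, 1.32 and 0.854 CPM at day 10. This was the smallest adjusted p among the members, 4.63e-13, with a log2 fold change of −5.24 ± 0.28. Hoxb6 averaged 18.3 ± 2.78 CPM in MEFs and read 0.925, 1.12 and 0.356 CPM at day 10 (−4.5 ± 0.41 on the log2 scale, adjusted p = 2e-09). Hoxb4, known for its role in blood stem cells, was less reduced, from 10.4 ± 1.86 to 1.49 ± 0.854 CPM (−2.83 ± 0.35). In HoxC, Hoxc4 fell from 13.6 ± 1.18 to 1.52 ± 0.23 CPM (−3.15 ± 0.25, adjusted p = 2.53e-10) and the countable part of Hoxc5 fell by 4.76 on the log2 scale (SE 0.34). In each of these genes every day 10 library was under every MEF library.

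The smallest reductions at day 10 were among HoxA genes. Hoxa9, a gene of the lumbar region that also acts in blood progenitors, read 15.5, 17.7 and 16.7 CPM in MEFs and 6.22, 5.61 and 6.76 CPM at day 10 (log2 fold change −1.42 ± 0.19, adjusted p = 7.44e-07). Hoxa10, a neighbour with roles in the hindlimb and uterus, read 25.8, 29.5 and 27.2 CPM in MEFs and 4.21, 5.08 and 7.4 CPM at day 10 (−2.3 ± 0.25, adjusted p = 3.37e-08). Hoxa7, outside the rule for naming and chosen after its values were seen, had the highest share of its MEF level, 51.2%: 14.4, 14.6 and 15.2 CPM in MEFs and 7.23, 8.18 and 7.19 CPM at day 10 (−0.96 ± 0.26, adjusted p = 0.00209). Day 10 levels as a share of the MEF mean had a median of 27.3% over 7 HoxA genes, 5.78% over 8 HoxB genes, 4.34% over 6 HoxC genes and 5.25% over 6 HoxD genes. The clusters overlapped, with Hoxa13 at 4.46% and Hoxa11 at 12.6%, but Hoxb4 at 14.3%, Hoxd8 at 14.2% and Hoxd9 at 35.1%. The difference between clusters is a description and was not tested.

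**Figure D3:**
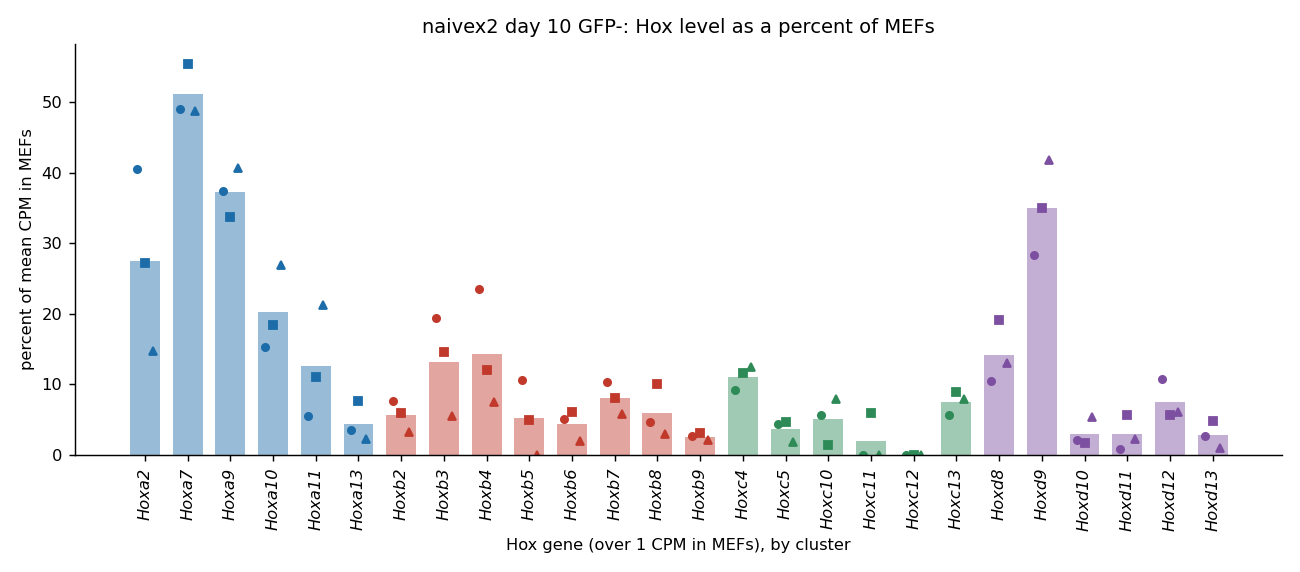
Day 10 level of 26 of the 27 Hox genes over 1 CPM in MEFs, as a percent of its mean CPM in MEFs, with genes ordered by cluster; points are the 3 naivex2 GFP- libraries and bars their mean. The bars run from 0.0% (Hoxc12) to 51.2% (Hoxa7), and 16 of the 26 plotted are under 10%.

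The genes that work with Hox proteins or act on the clusters moved in both directions between MEFs and day 10. So did genes in general, with 38.8% of all genes higher and 37.6% lower. Of 9 PBX, MEIS and PREP genes, whose proteins bind DNA jointly with Hox proteins, 4 were higher and 4 lower. Meis2 fell from 81.3 ± 10.3 to 9.47 ± 4.63 CPM (−3.12 ± 0.33 on the log2 scale, adjusted p = 8.51e-08) and Meis3 from 18.5 ± 2.67 to 2.4 ± 0.651 CPM, while Pbx4 rose from 3.9 ± 1.2 to 13.7 ± 1.15 CPM. Of 11 Polycomb repressive complex 2 genes, 7 were higher and 3 lower. Jarid2, a subunit that helps recruit the complex, rose from 22.8 ± 0.877 to 339 ± 28.3 CPM (3.89 ± 0.08, adjusted p = 1.26e-19), and the catalytic subunit Ezh2 from 98.0 ± 1.98 to 237 ± 18.7 CPM. Of 19 Polycomb repressive complex 1 genes, 7 were higher and 10 lower, with Cbx7 up from 1.64 ± 0.185 to 167 ± 28.4 CPM and Phc2 down from 248 ± 2.82 to 71.0 ± 4.79 CPM. Of 10 trithorax and H3K27 demethylase genes, 8 were higher and 0 lower.

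Upstream signalling genes were mostly lower. Of 12 CDX and retinoic acid genes tested, 2 were higher and 9 lower at day 10, against 38.8% and 37.6% of all genes. The retinoic acid synthesis gene Aldh1a3 went from 60.8 ± 5.42 to 0.162 ± 0.226 CPM, and the retinoic acid degrading gene Cyp26b1 from 34.6 ± 2.62 to 1.02 ± 0.431 CPM. Of 14 noncoding and flanking genes of the clusters, 3 were higher and 7 lower. Among the latter Hoxa11os, antisense to Hoxa11, fell from 3.99 ± 0.36 to 0.507 ± 0.301 CPM. Skap2, a coding gene beside HoxA, rose from 20.7 ± 0.987 to 66.1 ± 10.5 CPM. Of 14 fibroblast markers, 0 were higher and 12 lower, and of 5 leukocyte markers 1 was higher and 4 lower, with their sum going from 49.7 to 74.8 CPM down to 13.6 to 19.4 CPM.

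Between the GFP- cells of day 10 and those of day 14, the Hox genes moved little as a group but some went in opposite directions. Of the 27 tested, 6 were higher and 2 lower, against 20.3% and 16.5% of all genes. Hoxa9 fell further, to 2.19, 2.64 and 2.44 CPM at day 14 (log2 change from day 10 −1.35 ± 0.21, adjusted p = 4.23e-05), and Hoxa7 fell to 4.21, 3.88 and 3.42 CPM (−0.97 ± 0.27, adjusted p = 0.00845). Hoxc13, Hoxb9, Hoxc5, Hoxb2, Hoxa13 and Hoxd10 were higher. The count of higher genes dropped to 2 without day 10 replicate 3 or day 14 replicate 1, and to 3 without day 14 replicate 2. Hoxc13 kept its call in every one of 13 alternatives. Over the same interval 11 of 14 fibroblast markers and 7 trophectoderm markers were higher and 0 of either lower. Their part in the Hox changes was not tested.

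Hoxc13 stood apart from its neighbours in the later naivex2 groups. It lies at the 5′ end of HoxC (chr15:102921103-102928814, plus strand), overlaps no same-strand gene, and is known for its role in hair and nails. It was singled out after its values were seen. In MEFs it read 4.16, 5.3 and 3.9 CPM, and at day 10 0.252, 0.396 and 0.356 CPM, close to the floor of 0.221 CPM. In GFP- cells it then read 0.566, 1.39 and 0.858 CPM at day 12 and 2.37, 1.85 and 2.68 CPM at day 14. In GFP+ cells it read 2.88, 2.79 and 2.36 CPM at day 12 and 5.19, 4.18 and 6.67 CPM at day 14. On both days every GFP+ library was above every GFP- library, and GFP+ cells at day 14 overlapped the MEF range. Day 14 GFP+ cells held 120% of the MEF mean of Hoxc13, whereas the other 26 genes measured against MEFs were at 23.4% or under. In iPSCs it was down again, at 0.707, 1.65 and 0.806 CPM.

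Most of these differences in Hoxc13 were tested, but not those between GFP- cells of day 10 and day 12 or of day 12 and day 14. It rose between GFP- cells of day 10 and day 14 by 2.72 ± 0.39 on the log2 scale (adjusted p = 1.75e-05). GFP+ cells exceeded GFP- cells by 1.46 ± 0.33 at day 12 (adjusted p = 0.00325) and by 1.22 ± 0.27 at day 14 (adjusted p = 0.00181). GFP+ cells at day 14 exceeded those at day 12 by 0.99 ± 0.28 (adjusted p = 0.0101), a call lost without day 14 GFP+ replicate 3 (0.79, adjusted p = 0.0651). iPSCs were lower than GFP+ cells at day 14 by a log2 difference of −2.31 ± 0.3 (adjusted p = 3.2e-06). Its neighbours did not share the pattern in level: at day 14 GFP+ libraries Hoxc12 read 0.0, 0.212 and 0.0785 CPM and Hoxc11 0.0979, 0.142 and 0.0 CPM, all under the floor of 0.247 CPM. In MEFs they had read 2.61 and 4.4 CPM on average. The noncoding gene Hotair, which lies between Hoxc11 and Hoxc12 on the other strand, was at 0 in the same 3 libraries.

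**Figure D4:**
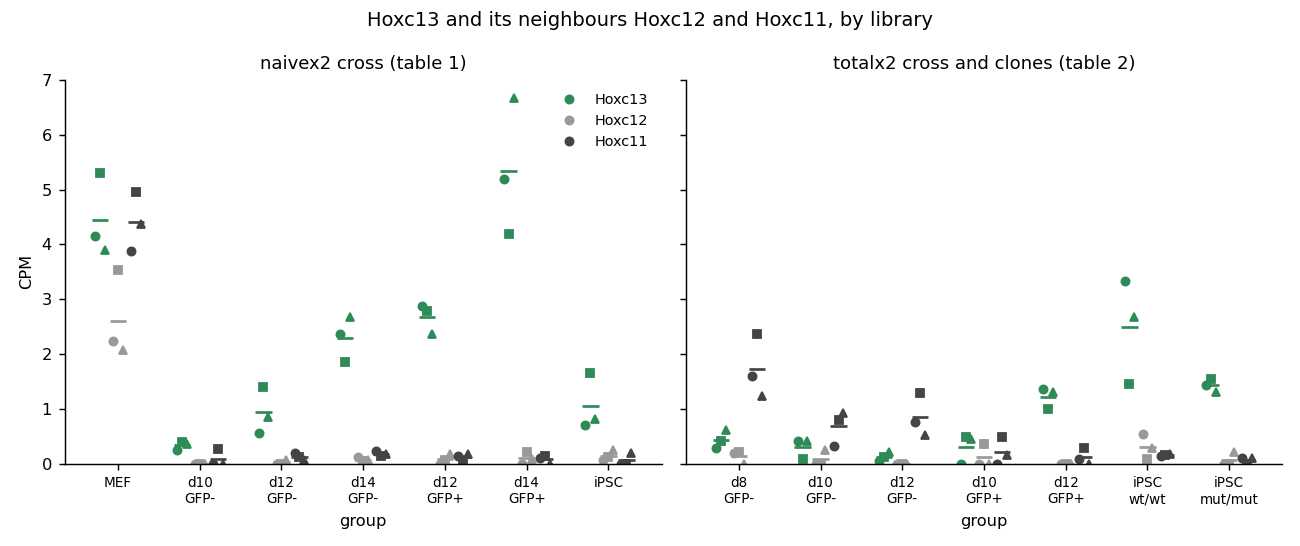
CPM of Hoxc13, Hoxc12 and Hoxc11 in each library by group, naivex2 on the left and totalx2 with the clones on the right; points are libraries and lines the group means. Hoxc13 runs from 4.18 to 6.67 CPM in naivex2 GFP+ cells at day 14, where both neighbours are at or under 0.212 CPM.

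Within naivex2, GFP+ cells were compared with GFP- cells sorted from the same lines. At day 12, 1 of 27 tested Hox genes was higher (Hoxc13) and 3 lower, against 9.93% and 6.69% of all genes. At day 14, 1 was higher (Hoxc13 again) and 7 lower, against 14.4% and 16.9% of all genes. Of those 7, 5 were HoxA genes, among them Hoxa9, Hoxa11, Hoxa7 and Hoxa10. Hoxa9 read 2.09, 2.33 and 3.5 CPM in GFP+ cells at day 12 against 4.43, 5.06 and 6.87 CPM in GFP- cells (−1.07 ± 0.22 on the log2 scale, adjusted p = 0.00136), and at day 14 the log2 difference was −1.58 ± 0.27 (adjusted p = 0.000142).

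At day 14 Hoxa10 read 2.25, 1.98 and 2.12 CPM in GFP+ cells and 4.96, 4.3 and 5.74 CPM in GFP- cells, with no overlap (−1.24 ± 0.29, adjusted p = 0.0025). Hoxa7 read 1.37, 1.42 and 1.49 CPM against 4.21, 3.88 and 3.42 CPM (−1.42 ± 0.33, adjusted p = 0.00224). The lower calls at day 14 also included Hoxa11, Hoxc5 and Hoxb2. A test of whether the GFP difference itself changed from day 12 to day 14 called 0 of 27 Hox genes, with 3 at an unadjusted p under 0.05 and a smallest adjusted p of 0.205. Over all genes 0.688% were called higher and 0.855% lower. At day 14, 6 of 14 fibroblast markers and 8 of 8 trophectoderm markers were also lower in GFP+ cells, and at day 12, 0 and 5 were. Their part in the Hox differences was not tested.

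Among the GFP+ cells, day 14 against day 12 gave 2 higher and 2 lower of 27, against 14.5% and 16% of all genes. Hoxb9 and Hoxc13 were higher. Hoxb9 differed by 2.03 ± 0.37 on the log2 scale (adjusted p = 0.000337) and reached 2.45, 1.98 and 2.43 CPM. Hoxa9 (−1.69 ± 0.28, adjusted p = 0.000109) and Hoxb7 were lower, and the Hoxb7 call was lost without day 12 GFP+ replicate 1 or day 14 GFP+ replicate 2. Of the fibroblast markers 7 of 14 were higher in the same comparison.

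iPSCs were set against both the latest sorted cells and the MEFs. Against GFP+ cells at day 14, 1 of 27 Hox genes was higher and 4 lower, with 24.3% and 22.5% of all genes called. The genes lower in iPSCs were Hoxc13, Hoxa10 (−1.36 ± 0.36, adjusted p = 0.00407), Hoxa7 (−1.5 ± 0.43, adjusted p = 0.00746) and Hoxa2, for which no fold is given because all 3 iPSC libraries held 0 counts. Hoxd13 was higher, at 2.19, 4.84 and 1.49 CPM against a mean of 0.945 ± 0.348 CPM (SD, n = 3; 1.57 ± 0.45, adjusted p = 0.00784). That call rested on iPSC replicate 2: without it the count of higher genes was 0, and without replicate 3 it was 2. Replicate 2 also had the highest summed Hox level and, at 3730 CPM, the highest fibroblast marker sum of the 3 iPSC libraries. In this comparison 7 of 14 fibroblast markers were higher and 0 lower, and the iPSCs had been grown on feeders; their part in the Hoxd13 difference was not tested.

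Against MEFs, all 27 tested Hox genes were lower in iPSCs and none higher, next to 39.4% and 37.9% of all genes. The median log2 fold change was −4.44 against 0.02. As at day 10, a gene could enter the test through a high MEF level alone. The count therefore describes the members that passed and not all 39. Hoxa9 went to 0.353, 0.627 and 0.372 CPM (−5.16 ± 0.26, adjusted p = 1.45e-13), Hoxa10 to 0.989, 1.14 and 0.31 CPM (−5.06 ± 0.31, adjusted p = 3.71e-12) and Hoxa7 to 0.495, 0.855 and 0.124 CPM (−4.86 ± 0.35, adjusted p = 6.11e-11). Hoxa7, Hoxa9 and Hoxa10, which were less reduced than the median member at day 10, were thus reduced by more than the median member in iPSCs. Hoxb9, at 1.63, 3.65 and 2.48 CPM (−3.98 ± 0.25, adjusted p = 5.52e-12), and Hoxd13 (−4.06 ± 0.34, adjusted p = 1.26e-09) were reduced by less than the median member. Every one of the 27 calls was kept under all alternatives tried.

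The cofactor and Polycomb genes also moved in both directions between MEFs and iPSCs. So did genes in general, with 37.9% of all genes higher and 39.4% lower. Of the 9 cofactor genes 3 were higher and 5 lower than in MEFs. Meis1, whose protein partners posterior Hox proteins, read 44.8, 40.8 and 43.3 CPM in MEFs, 26, 16.1 and 16.5 CPM at day 10 and 1.41, 2.05 and 1.36 CPM in iPSCs (−4.72 ± 0.21 against MEFs, adjusted p = 2.36e-14). Pbx3 went from 39.2 ± 2.3 CPM in MEFs to 8.44 ± 1.33 CPM. Of the Polycomb repressive complex 2 genes 7 were higher and 1 lower, of the complex 1 genes 9 were higher and 9 lower, and of the trithorax and demethylase genes 7 were higher and 1 lower. Of the fibroblast markers 1 was higher and 12 lower.

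In totalx2, Hox RNA in the GFP- cells was only in part lower at the later days. From day 8 to day 12, 7 of 24 tested Hox genes were lower and none higher, against 14.5% and 17.1% of all genes. Hoxa10 read 47.4, 42.2 and 48.2 CPM at day 8 and 29.3, 28.3 and 31 CPM at day 12, with no overlap (−0.64 ± 0.17 on the log2 scale, adjusted p = 0.00646). Hoxd11 fell by 1.18 ± 0.3 (adjusted p = 0.00552). Hoxd13 read 45.9, 48.8 and 59.6 CPM at day 8 and 12.0, 20.8 and 35.4 CPM at day 12 (−1.2 ± 0.39, adjusted p = 0.0245), and its call was lost under 4 of 13 alternatives, among them leaving out day 12 replicate 1 or 2 or day 8 replicate 3. The others were Hoxb9, Hoxa9, Hoxc5 and Hoxa7. The count of 7 dropped to 3 without day 12 GFP- replicate 2 and to 4 without day 12 GFP- replicate 3, without day 8 replicate 1 or with no filter on low counts. Of the fibroblast markers 1 was higher and 5 lower, and 7 trophectoderm markers were higher.

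GFP+ cells of totalx2 at day 10 held less Hox RNA than GFP- cells of the same day. Of 24 tested Hox genes, 6 were lower and 0 higher, against 9.36% and 13% of all genes, and with the MEF line as a block the lower count was 10. Hoxa9 read 9.21, 6.6 and 6.5 CPM in GFP+ cells and 23.6, 15.9 and 16.9 CPM in GFP- cells (−1.33 ± 0.22, adjusted p = 0.000127). Hoxa10 read 13, 18.5 and 13 CPM against 33.5, 26.9 and 28.7 CPM (−1.0 ± 0.18, adjusted p = 0.000289). Hoxa11, a gene of the forearm and lower leg, read 4.42, 5.52 and 5.17 CPM against 9.82, 7.51 and 12.7 CPM (−0.99 ± 0.28, adjusted p = 0.0156). None of these 3 overlapped between groups. The others were Hoxb2, Hoxc10 and Hoxd9. Without day 10 GFP+ replicate 1 the count dropped to 2, and the Hoxa11 call was also lost without day 10 GFP- replicate 3.

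At this point the fibroblast markers did not move with the Hox genes: 1 of 14 was higher and 1 lower, and their sum ran from 4770 to 12600 CPM in GFP+ cells and from 3440 to 9460 CPM in GFP- cells. Leukocyte markers did differ, with 5 of 5 higher in GFP+ cells and a sum of 49.1 to 148 CPM against 10.1 to 23.7 CPM. Their part in the Hox differences was not tested. Of the cofactor genes 1 was higher and 3 lower, and of the CDX and retinoic acid genes 0 were higher and 5 lower.

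At day 12 nearly every tested Hox gene was lower in GFP+ than in GFP- cells of totalx2. Of 24 tested, 23 were lower and 1 higher, against 30.4% and 31.2% of all genes. The median log2 difference was −2.25 against 0.05. Here too a gene could enter the test through a high level in 1 group alone, so the count describes the members that passed. Hoxa10 read 3.66, 3.12 and 3.96 CPM in GFP+ cells and 29.3, 28.3 and 31 CPM in GFP- cells (−3.02 ± 0.2, adjusted p = 3.08e-10). Hoxa9 read 3.66, 2.27 and 2.59 CPM against 23.1, 16.3 and 17.9 CPM (−2.74 ± 0.23, adjusted p = 1.07e-08). Hoxa11 read 1.1, 0.709 and 1.73 CPM against 7.87, 10.1 and 14.5 CPM (−3.09 ± 0.33, adjusted p = 1.66e-07). In all 3 genes the lowest GFP- library was several times the highest GFP+ library.

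The other clusters moved the same way at day 12. Hoxd13 read 2.38, 4.54 and 4.11 CPM in GFP+ cells and 12.0, 20.8 and 35.4 CPM in GFP- cells (−2.62 ± 0.46, adjusted p = 7.27e-05). Hoxc4 read 1.83, 1.56 and 1.37 CPM against 6.82, 6.69 and 4.61 CPM (−1.94 ± 0.31, adjusted p = 2.59e-05), and Hoxb3, a hindbrain gene, 2.29, 2.84 and 1.3 CPM against 10.9, 10.9 and 7.33 CPM (−2.24 ± 0.39, adjusted p = 6.62e-05). Hoxa7, Hoxa13 and Hoxd8 were lower by 2.39, 2.49 and 2.2 on the log2 scale. Among the 24 tested genes the groups overlapped for Hoxb8 only. The share of all genes without overlap was not counted, so this is a description and not a trait of the Hox genes.

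Hoxc13 was again the gene that was higher. It read 1.37, 0.992 and 1.3 CPM in GFP+ cells and 0.0477, 0.117 and 0.209 CPM in GFP- cells, the latter from 1, 1 and 2 counts and all under the floor of 0.27 CPM. The fitted log2 difference was 3.43 ± 0.65 (adjusted p = 0.000142), and its size depends on those few counts. At day 10 neither totalx2 group had a mean over 0.308 CPM.

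All 14 fibroblast markers were also lower in GFP+ cells at day 12, with sums of 2470 to 2940 CPM against 10600 to 14100 CPM, and their part in the Hox difference was not tested. Of the cofactor genes 1 was higher and 5 lower, against 31.2% and 30.4% of all genes. Pbx3 was 20.4 ± 0.643 CPM against 50.7 ± 5.23 CPM, and Meis2 5.61 ± 1.71 CPM against 25.6 ± 4.3 CPM. Of 11 Polycomb repressive complex 2 genes 6 were higher and 1 lower, led by Mtf2 at 420.0 ± 40.9 CPM against 102 ± 10.8 CPM. Of 12 CDX and retinoic acid genes 1 was higher and 7 lower. Crabp1, which binds retinoic acid in the cytoplasm, was at 43.1 ± 5.28 CPM against 365 ± 48.3 CPM.

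Whether the GFP difference changed between the days was tested directly in totalx2. It did for 13 of 24 tested Hox genes, 12 towards lower and 1, Hoxc13, towards higher, against 16.7% and 10.6% of all genes. For Hoxa10 the day 12 difference exceeded the day 10 difference by −2.02 ± 0.26 on the log2 scale (adjusted p = 0.000106), for Hoxa11 by −2.1 ± 0.43 (adjusted p = 0.00187) and for Hoxa9 by −1.41 ± 0.32 (adjusted p = 0.00324). The count towards lower was 7 without day 10 GFP+ replicate 2, and Hoxc13 lost its call without day 10 GFP- replicate 1 or day 12 GFP- replicate 1. Of the fibroblast markers 13 of 14 showed the same change towards lower and 0 towards higher.

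**Figure D5:**
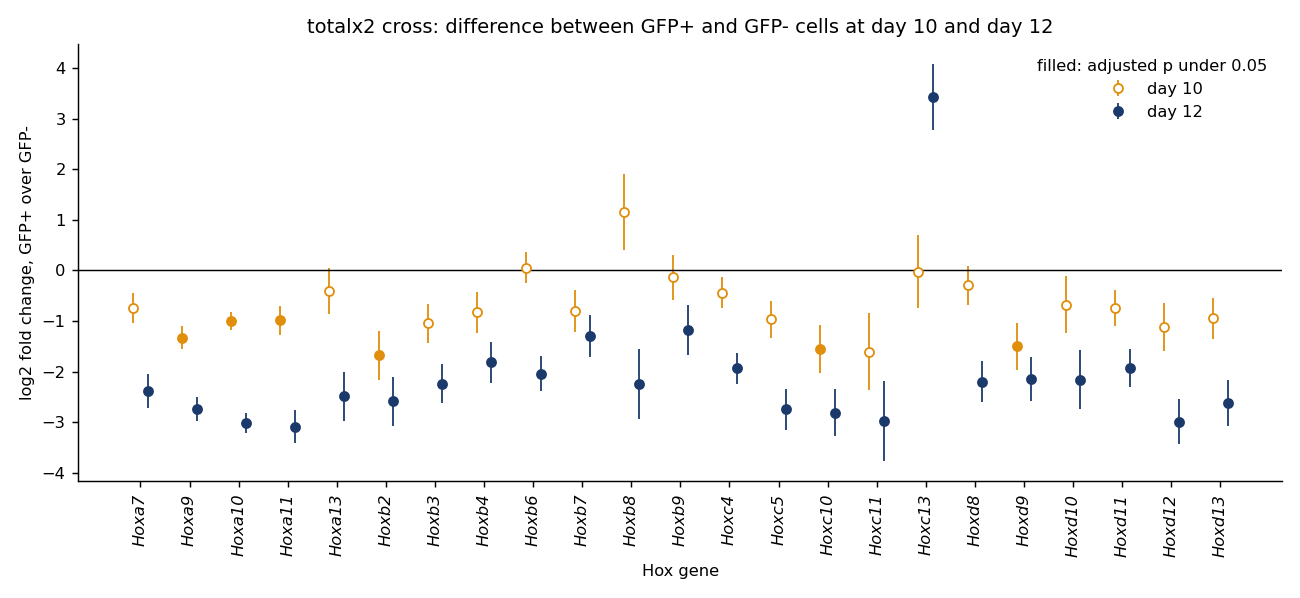
Log2 fold change of GFP+ over GFP- totalx2 cells at day 10 and day 12 for 23 of the 24 tested Hox genes, with bars of 1 standard error and filled points where the adjusted p is under 0.05. At day 12, 22 of the 23 plotted genes lie under 0, and Hoxc13 lies at 3.43.

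Directly between GFP+ cells of day 10 and day 12, 9 of 24 Hox genes were lower at day 12 and 1 higher, against 12.9% and 12.2% of all genes. Hoxa10 was lower by a log2 difference of −2.03 ± 0.2 (adjusted p = 1.51e-06), Hoxa11 by −2.0 ± 0.34 (adjusted p = 0.000365) and Hoxa7 by −1.76 ± 0.35 (adjusted p = 0.00125). Hoxa9, Hoxb6, Hoxd13, Hoxc5 and Hoxd8 were also lower. The call of Hoxd8 was lost under 5 of 13 alternatives, with a log2 difference as small as −0.66, and that of Hoxc5 under 3 of 12. Hoxd13 overlapped between the groups, at 4.54, 13.8 and 15.8 CPM on day 10, and its call was lost under 4 of 13 alternatives. The lower count was 5 without day 10 GFP+ replicate 2. The call of Hoxc13 as higher was lost without day 10 GFP+ replicate 1, day 12 GFP+ replicate 1 or day 12 GFP+ replicate 3. Here 12 of 14 fibroblast markers and 4 of 5 leukocyte markers were lower and 0 higher, and 4 of 8 trophectoderm markers were higher and 0 lower. Their part in the Hox differences was not tested.

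Wild-type iPSC clones were compared with day 12 GFP+ totalx2 cells, although stage and cross differ together here and cannot be told apart. Of 24 Hox genes, 8 were lower in the clones and 3 higher, against 26% and 25% of all genes. Hoxa9 (−3.13 ± 0.37, adjusted p = 1.38e-06) and Hoxa10 (−2.33 ± 0.29, adjusted p = 2.02e-06) were lower, Hoxa10 at 0.266, 0.814 and 0.855 CPM in the clones. Hoxa9 read 0.133, 0.407 and 0.342 CPM in the clones, from 1, 5 and 6 counts and near the floor of 0.272 CPM. The size of its difference depends on those few counts. Hoxb9 and Hoxc5 were among the genes higher in the clones, though the Hoxc5 call was lost under 5 of 12 alternatives. Hoxb9 read 2.66, 3.25 and 3.65 CPM in the clones against 0.64, 0.425 and 0.648 CPM (2.43 ± 0.46, adjusted p = 0.00023). Without wild-type replicate 3 the lower count was 4, and without wild-type replicate 1 or day 12 GFP+ replicate 1 it was 5. Of the fibroblast markers 3 were higher and 4 lower, and of 8 trophectoderm markers 1 was higher and 6 lower. Their part here was not tested.

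Knockout and wild-type iPSC clones were compared to ask whether Hox genes differ when Tet1 is disrupted. Tet1 itself read 54.3, 58.6 and 57.2 CPM in knockout clones and 1300.0, 822 and 873 CPM in wild-type clones (−4.14 ± 0.18, adjusted p = 2.52e-11). No Hox gene was called in either direction, while 4.78% of all genes were higher and 5.87% lower. The median log2 difference was −0.4 for the tested Hox genes, with 17 under 0 and 7 above, and −0.04 for all genes. At an unadjusted p under 0.05 there were also 0 Hox genes, against 4004 genes in all, and DESeq2 called 0 as well. The smallest adjusted p was 0.233, for Hoxc13, at 1.43, 1.54 and 1.31 CPM in knockout clones and 3.33, 1.46 and 2.68 CPM in wild-type clones (−0.77 ± 0.4). Wild-type replicate 1, with 12.18% mitochondrial counts and a TMM factor of 0.7815, held the highest wild-type value of both Tet1 and Hoxc13. Hoxc5 differed by −0.77 ± 0.43 (adjusted p = 0.269) and Hoxc10 by 1.12 ± 0.61 (adjusted p = 0.289).

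The size of difference that these clones leave possible is wide, and most Hox genes were under 1 CPM in them. Over the 24 tested genes the fitted log2 differences ran from −1.32 (Hoxa13) to 1.12 (Hoxc10), with standard errors of 0.34 to 1.14. For 23 of the 24, an interval of 2 standard errors either side of the estimate reached a change of 1 or more on the log2 scale. For those genes a change of that size was therefore not excluded in at least 1 direction. The standard errors hold the spread between clones as well as counting error. Hoxb9, the Hox gene with the largest share of the summed CPM in both genotypes, read 2.64, 3.48 and 3.39 CPM in knockout clones and 2.66, 3.25 and 3.65 CPM in wild-type clones.

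Genes that act with or on the Hox clusters were also mostly uncalled between the genotypes, as were genes in general. Over all genes 4.78% were higher and 5.87% lower. Of the 9 cofactor genes 1 was higher and 0 lower in knockout clones. Of the Polycomb repressive complex 2 genes 0 were higher and 1 lower (Phf19, −0.6 ± 0.16, adjusted p = 0.0225), of the complex 1 genes 3 higher and 0 lower, and of the trithorax and demethylase genes 0 either way. Of the CDX and retinoic acid genes Rara was higher and Stra8 lower. None of the noncoding and flanking genes and none of the fibroblast markers was called.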

How the data were processed

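Gene counts of 42 polyA libraries, deposited as 2 tables of 21, were used. Per the submitters' processing notes, reads were aligned with HISAT2 2.1.0 to mm10 and counted with featureCounts 1.5.3, and DESeq2 1.18.1 was used. Per the file headers, the authors counted reads per gene name over whole gene spans with strand setting 2, against GENCODE-style annotations that were named differently in the 2 tables. The deposited counts are raw and not normalized. Reads in more than 1 same-strand gene were not counted.

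Each table was fitted separately with all of its libraries in edgeR 4.0.16 (R 4.3.3), with filterByExpr by group, TMM factors (0.7815 to 1.07) and the robust quasi-likelihood test, without a block. P-values were two-sided and adjusted by the Benjamini-Hochberg method over all genes tested, and an adjusted p under 0.05 was called. Levels are CPM scaled by TMM and given as mean ± SD (n = 3), and fold changes are log2 ± SE. Of 15 comparisons, 2 were differences of differences. The fit was tested on simulated data.

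Values are given for called members whose higher group averaged 5 CPM or more, up to 14 by smallest p, for the 4 smallest p between the clones and for up to 4 genes per list. Other Hox genes given with values fall outside that rule. They were chosen after their values were seen, which is not said at each place. The members and gene lists were chosen with earlier results of these data known. Alternatives were to scale by RLE or by total counts, to drop the filter or ask for 1 CPM in 3 libraries, to fit the compared groups alone, to use DESeq2 1.42.0, to add the replicate block, and to leave out each library.

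Replicate numbers mark the same MEF line in every group of a cross. Same-numbered libraries deviated together in totalx2 (correlations of 0.126 to 0.593 in 30 pairs) and less regularly in naivex2 (−0.121 to 0.359 in 63 pairs). The clones share only numbers. Some genes are not reported here by name, and the figures leave out 1 Hox gene that the counts and sums include.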

Additional observations from a re-analysis of the deposited data

Results flagged for a closer look

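Some Hox genes stood out because the difference between GFP+ and GFP- totalx2 cells was not the same at day 10 and day 12, by the edgeR test of that difference itself. Values are the log2 difference at day 12 minus that at day 10, with standard errors. In HoxA they were −2.02 ± 0.26 for Hoxa10, −2.1 ± 0.43 for Hoxa11, −1.41 ± 0.32 for Hoxa9, −1.64 ± 0.45 for Hoxa7 (adjusted p = 0.0117) and −2.09 ± 0.68 for Hoxa13 (adjusted p = 0.0282). In HoxB they were −2.09 ± 0.46 for Hoxb6 (adjusted p = 0.00293) and −3.41 ± 1.03 for Hoxb8 (adjusted p = 0.0197). In HoxC they were −1.5 ± 0.44 for Hoxc4, −1.78 ± 0.56 for the countable part of Hoxc5 and, in the other direction, 3.46 ± 1.0 for Hoxc13 (adjusted p = 0.0154). In HoxD they were −1.9 ± 0.56 for Hoxd8 and −1.87 ± 0.68 for Hoxd12 (adjusted p = 0.0481). Of the 13 calls in this comparison, 5 were kept under every alternative and 8 were lost under at least 1. The call of Hoxd12 was lost under 13 of 19 alternatives, DESeq2 among them, that of Hoxa13 under 6 of 19 and that of Hoxc5 under 4 of 19. That of Hoxb8 was lost under 2 of 18. Hoxb8 averaged 0.643 CPM in GFP+ and 0.279 CPM in GFP- cells at day 10, and 0.194 and 1.01 CPM at day 12. The day 12 GFP+ mean was under the floor of 0.305 CPM and the day 10 GFP- mean near that of 0.254 CPM. The size of its change therefore depends on few counts. Groups of 3 libraries were too small to test for single outlying libraries.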

How the results depend on the processing

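The 61 log2 fold changes of single genes followed here were those of genes named by rule, and none was a difference of differences. Of these, 55 kept their direction and their side of the threshold under every alternative. The other 6 lost the call under some, and 0 of 791 alternative values reversed. Over all called members, 0 of 27 calls were lost under any alternative in each MEF comparison. For the GFP difference at day 12 in totalx2, 2 of 24 were lost. For naivex2 GFP- cells of day 14 against day 10, 5 of 8 were lost, and for totalx2 GFP+ cells of day 12 against day 10, 5 of 10. Counts of called Hox genes were within 1.5 times the reported count in 387 of 414 alternative values. The exceptions follow, and the cause was not tested. With no low-count filter, 4 rather than 7 genes were lower in totalx2 GFP- cells from day 8 to day 12. With only the groups compared, 0 rather than 1 was higher in totalx2 GFP+ cells at day 12 against day 10, 5 rather than 8 were lower in wild-type clones against those cells, and 1 rather than 0 had a lower GFP effect at day 14 than at day 12 in naivex2. With the MEF line as a replicate block, 10 rather than 6 genes were lower in totalx2 GFP+ cells at day 10, and the block moved no other count by more than 1.5 times. With each library left out in turn, the ranges were 2 to 5 higher for naivex2 GFP- cells of day 14 against day 10, 1 to 3 higher and 1 to 2 lower for naivex2 GFP+ cells of day 14 against day 12, and 0 to 2 higher for iPSCs against the latter. In totalx2 they were 3 to 6 lower for GFP- cells of day 12 against day 8, 2 to 8 lower for GFP+ against GFP- cells at day 10, and 0 to 1 higher and 5 to 10 lower for GFP+ cells of day 12 against day 10. They were 4 to 8 lower for wild-type clones against day 12 GFP+ cells, and 0 to 1 towards higher and 7 to 15 towards lower for the change in GFP effect. The counts of 27 lower at day 10 and in iPSCs against MEFs stayed at 27 to 28, and 21 to 24 were lower at day 12 in totalx2 GFP+ cells. Depth limits what the iPSC libraries can show, since most Hox genes were under 1 CPM there.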

Other observations

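Halr1, a noncoding gene beside the 3′ end of HoxA (chr6:52102949-52113684, plus strand, mm10), had the opposite course to the HoxA genes in naivex2. It is one of the noncoding and flanking genes listed and was singled out after its values were seen. It read 0.117, 0.0 and 0.0591 CPM in MEFs, all under the floor of 0.202 CPM, and 1.26, 1.52 and 0.783 CPM at day 10. In GFP+ cells at day 14 it read 9.6, 10.1 and 7.53 CPM, and in iPSCs 38.6, 63.5 and 59.9 CPM. No 2 of these groups overlapped. Halr1 was higher in GFP+ than in GFP- cells at day 14 by 1.82 ± 0.27 on the log2 scale (adjusted p = 2.73e-05, edgeR) and higher in iPSCs than in those GFP+ cells by 2.57 ± 0.24 (adjusted p = 3.51e-08). In wild-type clones it read 76.2, 43.1 and 40.7 CPM and in knockout clones 49.6, 53.0 and 44.9 CPM (−0.11 ± 0.25, adjusted p = 0.816). Day 12 GFP+ cells of totalx2 held 3.02, 2.84 and 3.96 CPM. Shared control of Halr1 and HoxA was not examined.

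Some MEF lines of totalx2 kept their rank for a Hox gene from day 8 on. Among 10 genes of at least 5 CPM at day 8, Hoxa9 was highest in replicate 1 in all 5 totalx2 groups, Hoxa7 was lowest in replicate 3 in all 5, and Hoxa13 and Hoxd13 were lowest in replicate 1 in all 5. Hoxd13, for example, read 45.9 CPM in replicate 1 and 59.6 CPM in replicate 3 at day 8, and 2.38 and 4.11 CPM in GFP+ cells at day 12. In naivex2, 0 of 17 genes were highest, and 0 lowest, in the same line in all 7 groups. This order was noticed after the values were seen and was not tested.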
